A study of Saccharomyces cerevisiae with 7 samples.

Results

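Small subunit processome genes code for the protein scaffold on which the small ribosomal subunit is first built. The 32 genes described here were chosen by name from the 6141 open reading frames of the table, with no cut on their values. Earlier results of these data were known when the choice was made. The genes were UTP4 to UTP10, UTP13, UTP15, UTP18, UTP20 to UTP22, NOP1, NOP14, NOP56, NOP58, MPP10, IMP3, IMP4, SOF1, DIP2, PWP2, KRR1, ENP1, ENP2, BFR2, RRP5, RRP9, RRP12, NOC4 and DBP8. A value in at least 1 library was given for 31 of them, and 25 had a value in all 7 libraries. IMP4 (YNL075W) had none. UTP4 and MPP10 lacked the 1 h value, UTP5 that of 5 h and NOC4 that of 6 h. UTP13 lacked 5 h and 6 h, and BFR2 lacked 5 h and 8 h.

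The samples were 7 two-colour arrays of budding yeast, Saccharomyces cerevisiae, all of the Clb5Delta-Clb6Delta mutant, which lacks a pair of B-type cyclins that drive entry into S phase. Cells were collected at 1, 2, 3, 4, 5, 6 and 8 h of meiosis, 1 library per time with no replicate, and each deposited number is log2 of the mRNA of a gene over that of the same gene in the same mutant at 0 h. A value of -1 is therefore a 2-fold lower ratio than at 0 h. All 7 libraries share the 0 h array, and no other genotype was analysed here. The strain background and medium are not stated in the labels. The array titled 8 h has a source name of 6 h; it is called the last array and placed at 8 h. Between 5625 and 5810 open reading frames had a value in a library, and the number of arrays limits the precision. All 16 genes fixed as markers of meiosis had values, and their median log2 ratio was 2.02 at 1 h, 4.40 at 4 h and 3.49 on the last array. Their courses differed. From 1 h to the last array NDT80 went from -0.56 to 5.29, IME1 from 0.76 to -1.29 and HOP1 from 3.68 to 2.35. A ratio to the same mutant at 0 h holds no absolute level, so the values of CLB5 (-0.51 to 1.40) and CLB6 (-0.53 to 1.27) do not check the deletions.

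The processome is a large particle of RNA and protein that forms on the nascent ribosomal precursor RNA in the nucleolus. The complexes UtpA and UtpB bind the leader of the transcript, the U3 small nucleolar RNA pairs with the precursor, and further factors hold it while the leader is cut away and the small subunit rRNA is released. The genes for these proteins belong to the ribosome biogenesis genes of yeast, a large group that is known to be highly expressed in rich medium and to be turned down together when nutrients are poor. Starvation for nitrogen and a fermentable carbon source is also what sends diploid yeast into meiosis. In electron micrographs of spread ribosomal genes the processome is seen as the terminal knob of each transcript.

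The first comparison set each library against 0 h. Most of the processome genes were already low at 1 h and stayed low, while the median log2 ratio of all genes stayed near 0. Array normalization is not stated in the labels, so a median near 0 does not tell whether total mRNA changed from 0 h. The median of the members with a value was -1.27 at 1 h, -1.31 at 2 h, -1.03 at 3 h, -1.14 at 4 h, -1.09 at 5 h, -1.14 at 6 h and -0.84 on the last array. The median of all genes lay between -0.01 and 0.09. With 1 library per time these levels have no replicate check and no test. In bulk samples such as these, a lower level in every cell and a much lower level in some of the cells cannot be told apart.

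At 1 h, 16 of 29 measured members were at least 2-fold lower than at 0 h, against a background of 12.1% of all genes measured there. The count was 19 of 31 at 2 h (12.3% of all genes), 17 of 31 at 3 h (13% of all genes) and 19 of 31 at 4 h (15.7% of all genes). It was 15 of 28 at 5 h (18.2% of all genes), 17 of 29 at 6 h (19.3% of all genes) and 12 of 30 on the last array (20.5% of all genes). UTP6 on the last array was the 1 value among all members and times that was at least 2-fold higher than at 0 h. Of all genes, 12% were that much higher at 1 h, 12.9% at 2 h, 13.8% at 3 h, 17.6% at 4 h, 18.8% at 5 h, 19.6% at 6 h and 22.7% on the last array. UTP6 reached 2-fold there in neither of the scalings that even out the spread of the libraries (same median absolute deviation and quantile normalization). Of the 25 members measured throughout, 17 were below 0 in all 7 libraries, as were 24.2% of all genes measured throughout. DIP2, NOP56, NOP58 and IMP3 were at least 2-fold lower in all 7, which held for 6.17% of all genes. All 7 ratios of a gene share its 0 h value, so the libraries are not separate checks in these counts. UTP5, MPP10, UTP13 and BFR2 were at least 2-fold lower in each library that measured them. At the other end 7 of the 25 reached 2-fold lower in no library: UTP9, PWP2, UTP21, RRP9, UTP20, ENP2 and RRP5.

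**Figure D1:**
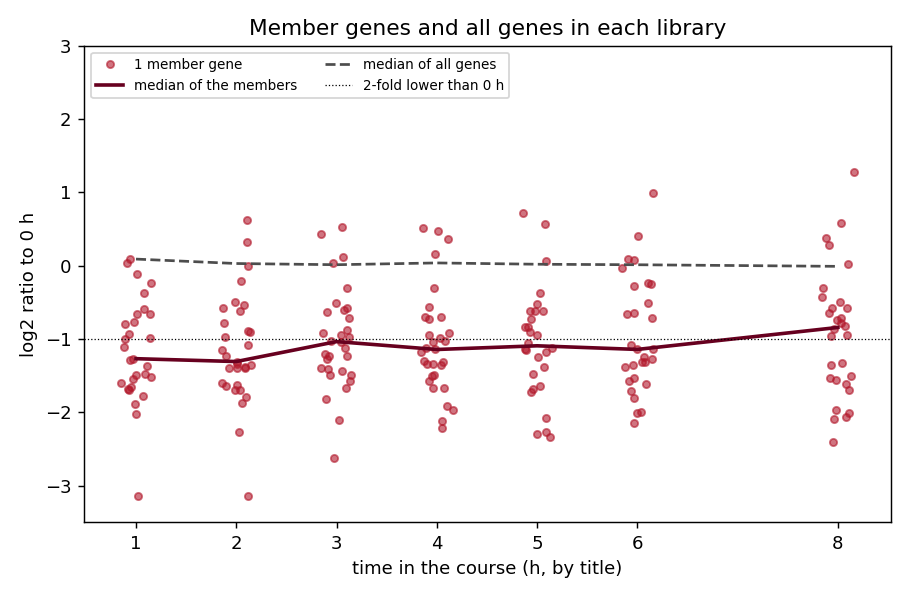
Each point is 1 processome gene in 1 library, with time in hours on the x axis and the log2 ratio to 0 h on the y axis; the solid line is the median of the members and the dashed line that of all genes. The median of the members lay at -1.27 at 1 h and at -0.84 on the last array, below the dashed line at each time, and the points spread from -3.14 to 1.28.

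UtpA, known in part as the t-Utp complex, is the first complex to bind the nascent precursor. Its 6 members had a median of -0.999 at 1 h and -1.23 on the last array. UTP10 (YJL109C), its large HEAT-repeat subunit, lay between -1.69 at 5 h and -0.98 at 1 h. UTP4 (YDR324C) lay between -1.38 and -0.95 in the 6 libraries that measured it, and UTP5 (YDR398W) between -2.06 and -1.39 in its 6. UTP9 (YHR196W) had the highest mean of the complex, -0.67, and lay between -0.999 at 1 h and -0.51 at 6 h. So the subunits of 1 complex stood at different distances from their own 0 h level. These are ratios within each gene and say nothing of the relative abundance of the subunits.

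UTP8 (YGR128C) and UTP15 (YMR093W), also of UtpA, ended far apart. UTP8 had values of -0.66 at 1 h, -0.77 at 2 h, -1.03 at 3 h, -1.18 at 4 h, -1.47 at 5 h, -1.09 at 6 h and -1.98 on the last array. UTP15 had values of -1.29 at 1 h, -1.69 at 2 h, -1.50 at 3 h, -1.30 at 4 h, -0.83 at 5 h, -1.32 at 6 h and -0.42 on the last array. Each had its extreme value in the last library, UTP8 its lowest and UTP15 its highest. The difference between these courses was not tested.

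UtpB binds the precursor after UtpA and is made mostly of WD-repeat proteins. PWP2 (YCR057C, also Utp1) lay between -0.91 and -0.58, and DIP2 (YLR129W, also Utp12) lay between -1.72 and -1.35, a range of 0.38 log2 units. UTP21 (YLR409C) lay between -0.92 at 4 h and 0.03 on the last array. UTP13 (YLR222C) was among the 3 lowest means, at -3.14 at 1 h, -1.70 at 2 h, -1.49 at 3 h, -2.22 at 4 h and -1.69 on the last array. It was far lower at 1 h than later, and its mean of -2.05 rests on 5 values.

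UTP6 (YDR449C) and UTP18 (YJL069C) left their low level late. UTP6, a repeat protein of UtpB, had values of -1.36 at 1 h, -1.60 at 2 h, -0.95 at 3 h, -1.34 at 4 h, -0.91 at 5 h, 0.09 at 6 h and 1.28 on the last array. UTP18, which recruits the exosome helicase Mtr4 to the cut leader, had values of -1.60 at 1 h, -1.15 at 2 h, -1.20 at 3 h, -1.14 at 4 h, -0.73 at 5 h, -0.23 at 6 h and 0.59 on the last array. Each was below its 0 h level up to 5 h and above it in the last library. From 4 h to the last array UTP6 gained 2.62 and UTP18 1.73 log2 units, where PWP2 gained 0.12, DIP2 0.14, UTP13 0.53 and UTP21 0.94.

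**Figure D2:**
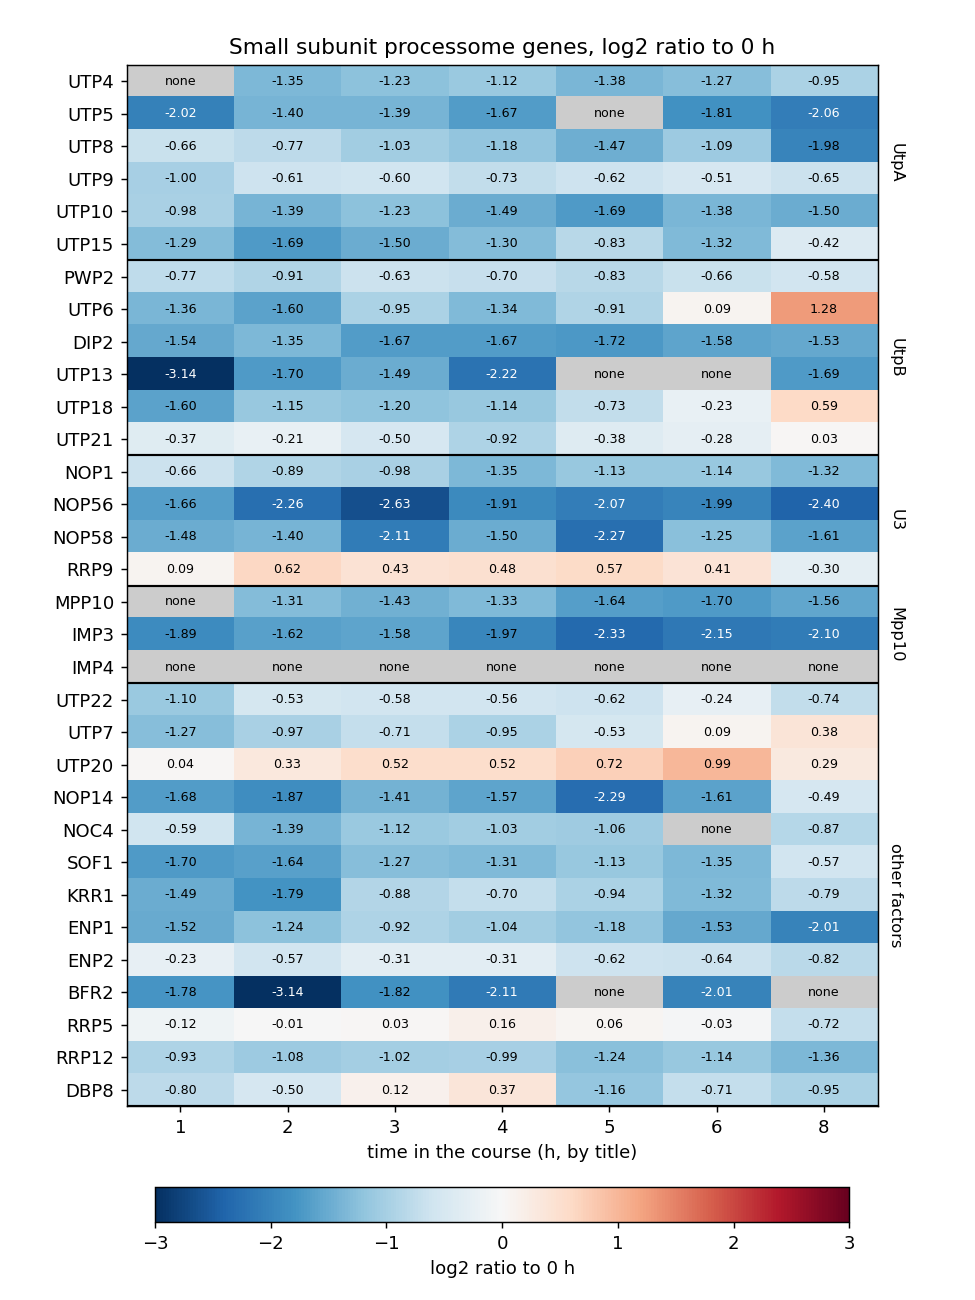
Heat map of the 32 genes (rows, grouped by complex) in the 7 libraries (columns, time in hours); colour and number give the log2 ratio to 0 h, blue below and red above it, and grey cells have no value. Most rows are blue from 1 h on, NOP56 between -2.63 and -1.66 for example, while UTP20, RRP9 and RRP5 are pale or red, and UTP6, UTP18 and UTP7 turn red at the right edge.

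The genes for the proteins of the U3 particle were unlike each other in their distance from 0 h. NOP56 and NOP58, the paralogous core proteins of box C/D particles, were low throughout. NOP56 (YLR197W) had values of -1.66 at 1 h, -2.26 at 2 h, -2.63 at 3 h, -1.91 at 4 h, -2.07 at 5 h, -1.99 at 6 h and -2.40 on the last array. Its mean of -2.13 was among the 3 lowest of the members. NOP58 (YOR310C) lay between -2.27 at 5 h and -1.25 at 6 h. NOP1 (YDL014W), the fibrillarin that methylates RNA in these particles, had values of -0.66 at 1 h, -0.89 at 2 h, -0.98 at 3 h, -1.35 at 4 h, -1.13 at 5 h, -1.14 at 6 h and -1.32 on the last array. Its highest value was thus the earliest, and every value from 4 h on was past 2-fold lower.

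RRP9 (YPR137W), the protein found in the U3 particle alone, was among the 3 highest means. Its values were 0.09 at 1 h, 0.62 at 2 h, 0.43 at 3 h, 0.48 at 4 h, 0.57 at 5 h, 0.41 at 6 h and -0.30 on the last array. It was above 0 h in each library up to 6 h and below it in the last.

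The Mpp10 complex helps U3 to pair with the precursor. MPP10 (YJR002W) lay between -1.70 and -1.31 in the 6 libraries that measured it. IMP3 (YHR148W) had values of -1.89 at 1 h, -1.62 at 2 h, -1.58 at 3 h, -1.97 at 4 h, -2.33 at 5 h, -2.15 at 6 h and -2.10 on the last array. Every value of both genes was past 2-fold lower.

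The other 13 factors join as the particle grows, and they held both the highest and the lowest mean of the members, those of UTP20 and BFR2. UTP7 (YER082C), a WD-repeat protein that touches many processome factors, had values of -1.27 at 1 h, -0.97 at 2 h, -0.71 at 3 h, -0.95 at 4 h, -0.53 at 5 h, 0.09 at 6 h and 0.38 on the last array. SOF1 (YLL011W), another WD-repeat protein, had values of -1.70 at 1 h, -1.64 at 2 h, -1.27 at 3 h, -1.31 at 4 h, -1.13 at 5 h, -1.35 at 6 h and -0.57 on the last array. UTP7 came to lie above its 0 h level, while SOF1 remained below it in all 7 libraries.

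UTP20 (YBL004W), a very large HEAT-repeat protein, had values of 0.04 at 1 h, 0.33 at 2 h, 0.52 at 3 h, 0.52 at 4 h, 0.72 at 5 h, 0.99 at 6 h and 0.29 on the last array. RRP5 (YMR229C), which is needed for the rRNA of both subunits, had values of -0.12 at 1 h, -0.01 at 2 h, 0.03 at 3 h, 0.16 at 4 h, 0.06 at 5 h, -0.03 at 6 h and -0.72 on the last array. UTP20 was above its 0 h level in all 7 libraries, and RRP5 was near it until the last.

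Genes for proteins that work as partners did not all have like ratios. BFR2 (YDR299W), which binds Enp2, had the lowest mean of the members, with values of -1.78 at 1 h, -3.14 at 2 h, -1.82 at 3 h, -2.11 at 4 h and -2.01 at 6 h. That mean of -2.17 rests on 5 values. The median of BFR2 (-2.01) was above that of NOP56 (-2.07), which had 7 values. ENP2 (YGR145W) lay between -0.82 and -0.23 and was above BFR2 in each of the 5 libraries that measured both. NOP14 (YDL148C) lay between -2.29 at 5 h and -0.49 on the last array, and its partner NOC4 (YPR144C) between -1.39 and -0.59. ENP1 (YBR247C), which stays with the particle on its way to the cytoplasm, had its highest value at 3 h (-0.92) and its lowest on the last array (-2.01). The differences between partners were not tested.

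The remaining 4 had means between -1.13 (KRR1) and -0.52 (DBP8). The export factor RRP12 (YPL012W) had the narrow range of -1.36 to -0.93. KRR1 (YCL059C), a KH-domain protein, lay between -1.79 at 2 h and -0.70 at 4 h, and UTP22 (YGR090W), of the UtpC complex, between -1.10 at 1 h and -0.24 at 6 h. DBP8 (YHR169W), a DEAD-box helicase, stood at 0.12 at 3 h and 0.37 at 4 h and at -1.16 at 5 h, the largest swing between neighbouring libraries among these 4.

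The second comparison asked which members went up or down from 1 h to the last library, along a straight line of time and along a spline of time that also finds courses that turn. The spread is that of single successive samples of 1 course around the line or spline, not that between cultures. "Rose" and "fell" mean a limma adjusted p (Benjamini-Hochberg over the 5349 genes measured throughout) under 0.05 for the line, and "changed" the same for the spline. The 0 h array is a constant of each gene and does not enter the slopes. Of the deleted genes, CLB6 rose (slope 0.28 ± 0.06 per h, limma adjusted p = 0.00526) and CLB5 did not (0.05 ± 0.10, 0.714). Both changed by the spline (limma adjusted p = 0.0496 for CLB5 and 0.00415 for CLB6). A call therefore need not be that of intact mRNA of the named gene. What these probes read was not tested.

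Of the 25 members tested, 4 rose and 1 fell, beside 18% of all genes that rose and 15.1% that fell. UTP6 rose with a slope of 0.38 ± 0.07 log2 units each hour (SE; limma adjusted p = 0.00412), UTP18 with 0.29 ± 0.05 (limma adjusted p = 0.00175), UTP7 with 0.23 ± 0.04 (limma adjusted p = 0.00387) and SOF1 with 0.14 ± 0.04 (limma adjusted p = 0.0296). UTP8 fell, with a slope of -0.17 ± 0.04 (limma adjusted p = 0.0166). The rises of UTP6, UTP18 and UTP7 passed the threshold in each of the 13 alternative settings, with an adjusted p of at most 0.046, 0.0142 and 0.0216 in that order. These settings reuse the same libraries and are not independent checks. The scalings that even out the spread also raised the median slope of the members. SOF1 did not pass without the 2 h library (limma adjusted p = 0.0798), without 5 h (0.0509), without the last array (slope 0.09, 0.195) or with that array taken as 6 h (0.0917), and its adjusted p lay between 0.00349 and 0.195 over the settings. UTP8 did not pass without 2 h (limma adjusted p = 0.051), without the last array (0.116), with it taken as 6 h (0.0567), with libraries given equal spread (slope -0.06, 0.274) or after quantile normalization (slope -0.09, 0.141), and its range was 0.0103 to 0.274.

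The slopes of the other 20 members lay between -0.08 and 0.14 per h. The median slope of the members was -0.01 and that of all genes -0.01. The members' median slope was 0.10 after the libraries had been given equal spread and 0.07 after quantile normalization, against 0.01 and -0.0019 for all genes, so their direction depends on how the libraries are scaled. In the U3 group the steepest slope was that of NOP1 (-0.08 ± 0.04, limma adjusted p = 0.131), and IMP3, the 1 member of the Mpp10 complex tested, had -0.07 ± 0.04 (0.231). Neither passed, and the slope of each turned positive with libraries given equal spread. UTP15 did not pass (0.14 ± 0.05, limma adjusted p = 0.065), but did without 1 h (0.0216), without 6 h (0.0471) and under each of the 3 scalings, with a range of 0.00895 to 0.405. UTP20 passed without the last array (slope 0.17, limma adjusted p = 0.0228, against 0.06 and 0.4 with it, and 0.816 without 1 h). ENP1 passed as a fall without 1 h (slope -0.15, limma adjusted p = 0.0437, against -0.08 and 0.259 with it, and 0.994 without the last array).

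By the spline 9 of the 25 changed, beside 61% of all genes. They were UTP6, UTP18, UTP7, SOF1, UTP8, UTP15, RRP9, RRP5 and ENP1. ENP1 went up to 3 h and down after it (limma adjusted p = 0.00841). RRP9 (limma adjusted p = 0.0273) and RRP5 (0.0184) had their lowest value on the last array, and without that library their adjusted p was 0.378 and 0.533. Without it UTP8 (0.0673), UTP15 (0.502) and SOF1 (0.111) did not pass either, so that 5 members passed, UTP20 being added. SOF1 also missed the threshold without 1 h (0.0504) or 2 h (0.0535), RRP5 without 4 h (0.0533), RRP9 without 5 h (0.0531), and UTP15 without 2 h (0.0829), 3 h (0.075) or 4 h (0.0654). With the last array taken as 6 h, UTP8 (limma adjusted p = 0.0785), UTP15 (0.175), SOF1 (0.127), RRP9 (0.301) and RRP5 (0.29) did not pass. With libraries given equal spread UTP8 (0.352), RRP9 (0.0758) and RRP5 (0.0589) missed the threshold, and after quantile normalization the same genes did (0.174, 0.0797 and 0.0553 in that order). UTP6, UTP18, UTP7 and ENP1 passed by the spline in each of the 13 alternative settings. NOP14 (0.0518) and UTP20 (0.0554) lay just outside it with all 7 libraries. The range from lowest to highest value was under 1 log2 unit in 14 of the 25 members; its median was 0.95 for the members and 1.19 for all genes.

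**Figure D3:**
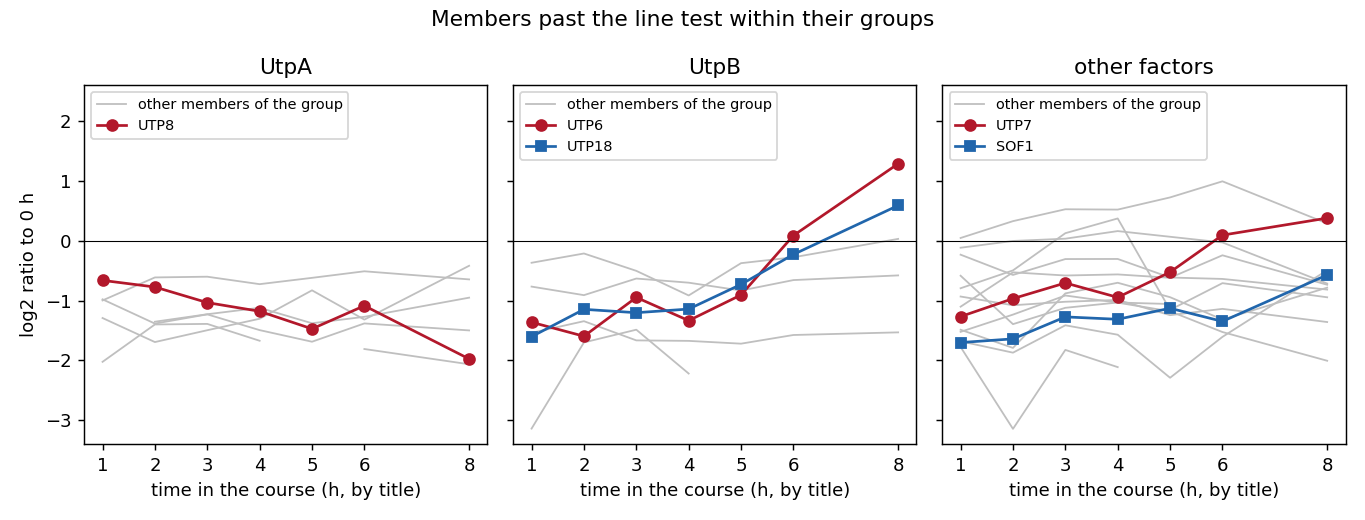
Courses of the members of UtpA, UtpB and the other factors, with time in hours on the x axis and the log2 ratio to 0 h on the y axis; coloured lines are the members that passed the line test, grey lines the other members of the same group, and gaps are missing values. UTP6 and UTP18 end at 1.28 and 0.59 and UTP7 at 0.38, while UTP8 ends at -1.98 and SOF1 at -0.57.

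Other genes of ribosome production were read from lists written with earlier results of these data known, and no list was tested as a set. The counts of each list that rose or fell stand beside the 18% of all genes that rose and the 15.1% that fell, and nothing particular to a list is read from them. In all 7 libraries the median of the members was lower than that of 33 other processome factors, such as the U3 protein SNU13 and the helicase ROK1. Those 33 had medians of -0.85 at 1 h, -0.58 at 4 h and -0.43 on the last array, and 6 of 26 tested rose with none falling (none at an unadjusted limma p under 0.05 either). The 48 assembly factors of the large subunit had medians of -0.92, -1.21 and -0.64 in those libraries, and 4 of 38 rose and 4 fell. They stood near the members from 2 h to 6 h and above them at 1 h and on the last array. For 11 late factors of the small subunit the medians were -0.84, -0.51 and -0.19, and 3 of 10 rose.

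The genes for the proteins of the small subunit itself stood much further below their 0 h level than those for its assembly factors. The 56 ribosomal protein genes of the small subunit had medians of -2.08 at 1 h, -3.11 at 4 h and -2.62 on the last array, and 8 of 52 fell, beside 15.1% of all genes. Of the genes measured throughout, 4 of the 25 processome members were at least 2-fold lower in all 7 libraries, against 48 of these 52. RNA polymerase I makes the precursor that the processome binds. The median of the processome members was -1.27 at 1 h, -1.14 at 4 h and -0.84 on the last array, against -0.10, -0.70 and -0.79 for the 8 RNA polymerase I genes. In the same order the medians were -1.31 and -0.89 at 2 h and -1.03 and -0.72 at 3 h. They were near each other at 5 h (-1.09 and -1.10) and at 6 h (-1.14 and -1.03). Of 7 RNA polymerase I genes tested 1 fell.

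**Figure D4:**
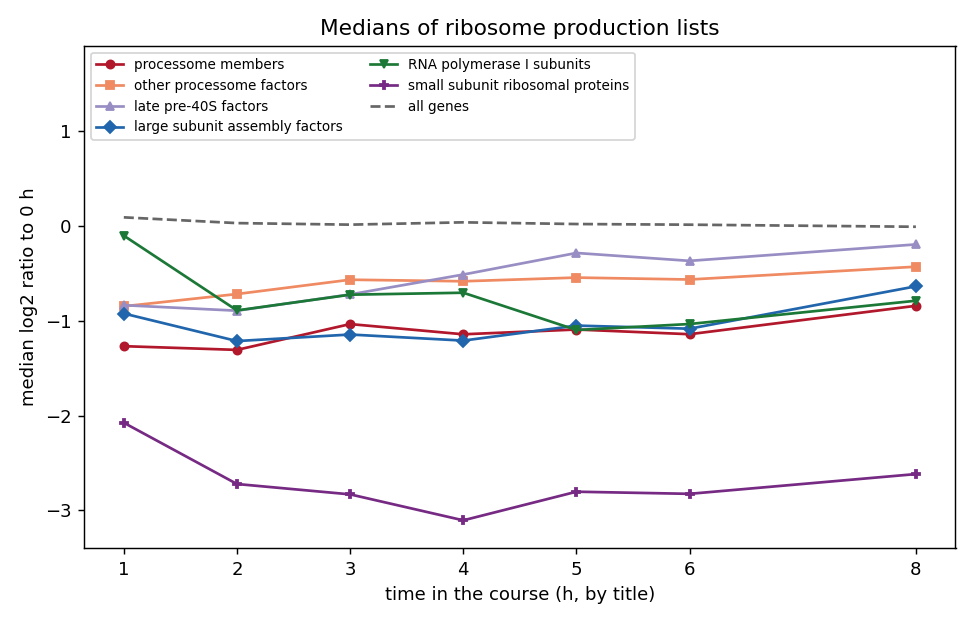
Median log2 ratio to 0 h (y axis) of each list of ribosome production genes and of all genes, by time in hours (x axis). The processome members and the large subunit factors run close together from 2 h to 6 h (-1.14 and -1.21 at 4 h). They are further apart at 1 h (-1.27 and -0.92) and on the last array (-0.84 and -0.64). Small subunit ribosomal protein genes lie lowest (-3.11 at 4 h) and all genes stay near 0.

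Among 9 regulators of ribosome biogenesis genes, 2 of the 8 measured rose, beside 18% of all genes. DOT6, a repressor that binds the promoters of such genes, had values of -0.98 at 1 h, -1.01 at 2 h, -0.97 at 3 h, -0.48 at 4 h, -0.24 at 5 h, 0.55 at 6 h and 0.79 on the last array (slope 0.30 ± 0.05 per h, limma adjusted p = 0.00197). It was below its 0 h level up to 5 h and above it at 6 h and on the last array. FHL1, a factor at ribosomal protein promoters, rose to 3.02 on the last array (slope 0.41 ± 0.08, limma adjusted p = 0.00529). STB3, another repressor of this group of genes, was above 0 h in all 7 libraries, between 0.81 and 1.49. The activator SFP1 lay between 0.00 and 0.77 and the kinase SCH9 between 0.40 and 0.88. RAP1 lay between 0.54 and 2.00, IFH1 between -0.21 and 0.64 and CRF1 between -0.77 and 0.11. By the spline 4 of the 8 changed, beside 61% of all genes. Alternative settings are not given for these regulators. TOD6, the paralog of DOT6, had no value.

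Genes next to the members on the chromosome were read from the gene order of the RefSeq assembly R64, since a probe can also read a long transcript of a neighbour. Over 52 pairs of a member and its next gene, the correlation across the libraries that measured both had a median of 0.22 and lay between -0.95 and 0.94; the points share the 0 h array, and no p is given. UTP6 lies beside ADA2, which had no value, and RPS18A, which lay between -3.83 and -2.27. The neighbours of UTP18 ran from 0.53 at 1 h to -0.73 on the last array for YJL070C, which fell (limma adjusted p = 0.0199, correlation -0.94 over 7 libraries), and lay between -0.10 and 0.51 for YJL068C (correlation 0.76 over 7). UTP7 lies beside SER3, which stood between -0.14 and 1.80 (correlation 0.65 over 7 libraries), and GET2, which stood between -0.13 and 0.22. SOF1 lies beside YEH1, which rose and stood at 5.42 at 6 h (limma adjusted p = 0.00774, correlation 0.62 over 7 libraries), and PSR1 (correlation -0.95 over 6). UTP8 lies beside YGR127W, which fell and stood at 0.56 at 1 h and -0.83 on the last array (slope -0.24 per h, limma adjusted p = 0.00865, correlation 0.77 over 7 libraries), and SYF2 (-0.34). Whether any of these members shares signal with its neighbour was not tested.

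The pairs of RRP9 and of UTP20, the members with the highest means, were picked after their values were seen. CTF4, which links the replicative helicase to DNA polymerase alpha, lies just before RRP9, and both are read in the same direction by the strand letters of their names. CTF4 stood at -0.40 at 1 h, 0.54 at 2 h, 0.43 at 3 h, 0.47 at 4 h, 0.67 at 5 h, 0.56 at 6 h and -0.53 on the last array. Its correlation with RRP9 over the 7 libraries, 0.94, was the highest of the 52 pairs. UTP20 lies beside HTA2, a histone H2A gene read toward it, which stood at -0.32 at 1 h, 1.02 at 2 h, 1.47 at 3 h, 2.09 at 4 h, 2.77 at 5 h, 2.67 at 6 h and 2.01 on the last array (correlation 0.85 over 7 libraries). High correlations were also found beside low members, 0.90 for IMP3 with SKG6 and 0.85 for UTP10 with GZF3, each over 7 libraries. Whether the values of RRP9 and UTP20 are those of their own mRNA alone was not tested.

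**Figure D5:**
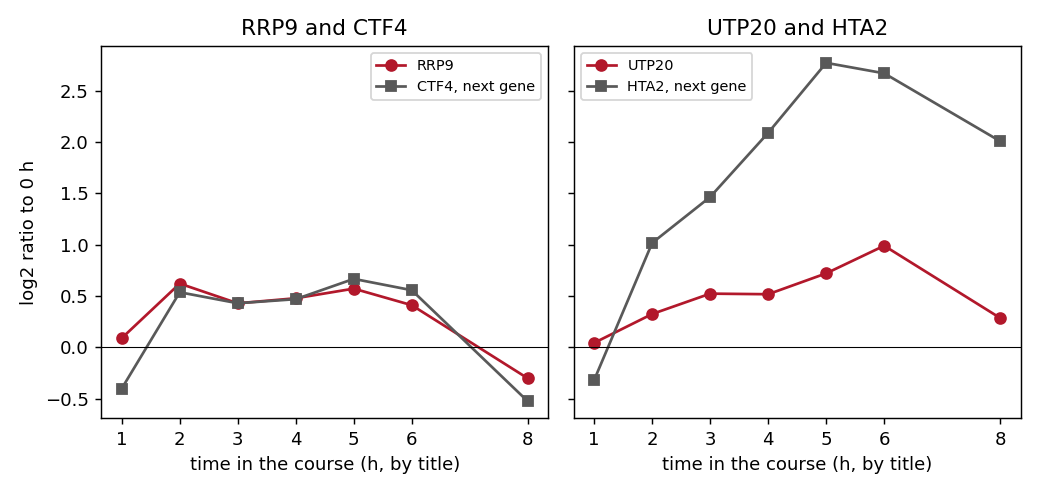
Log2 ratio to 0 h (y axis) by time in hours (x axis) of RRP9 with the adjacent CTF4 (left) and of UTP20 with the adjacent HTA2 (right), 1 library per point. RRP9 and CTF4 stand within a narrow band from 2 h to 6 h (0.41 to 0.62 and 0.43 to 0.67), and UTP20 and HTA2 are higher at 5 h and 6 h than at 1 h.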

How the data were processed

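The 7 arrays were hybridised with Cy5-labelled cDNA of 1 time point and a Cy3-labelled mix of mRNA from the course, per the labels' protocols. The deposited values are log2 ratios. Per the labels' design text, the authors normalized each ratio over the mix to the one measured at 0 h before taking logs. Background correction, spot filters and array normalization are not stated there, so signal above background is unknown.

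Titles gave the time of each library. All 32 members matched a locus tag and symbol of the RefSeq table (assembly R64), as did 5655 of 6141 open reading frames by locus tag. Values were used as deposited, with no filter or pseudocount. The line and a natural spline with 2 degrees of freedom were fitted by lmFit and eBayes of limma 3.58.1 (R 4.3.3) on the 5349 genes with a value in all 7 libraries, with Benjamini-Hochberg adjustment over all of them and a threshold of 0.05, leaving 5 and 4 residual degrees of freedom. The line fit was tested on 1 set of simulated data. It recovered 0% of genes with a slope of 0.1 per h, 77.6% with 0.3 and 92.4% with 0.6. There were 7 false calls among 120. Fewer genes were called in it than in the data, so these shares need not hold for the data. A small slope that did not pass is not shown to be absent. Python 3.11.15, numpy 2.4.6, pandas 2.3.3 and matplotlib 3.10.9 were used for tables and plots.

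The members, the gene lists and the tests were chosen with earlier results of these data known. All members may be named. Those named with every value passed the line test, had the 3 lowest or 3 highest means, or had the steepest slope of their group; UTP15, CTF4, HTA2 and DOT6 were given in full after their values were seen. A planned count of promoter motifs was not made, as no promoter sequence was used here. Alternatives were centring, the same median absolute deviation, quantile normalization, genes with 5 or more values, robust eBayes, the library titled 8 h taken as 6 h, and leaving out each library.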

Additional observations from a re-analysis of the deposited data

How the results depend on the processing

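With libraries brought to the same median absolute deviation, 8 members rose along the line and 0 fell by limma (0 also at an unadjusted p under 0.05), and UTP6 no longer reached 2-fold higher than 0 h in the library titled 8 h (0 members). After quantile normalization 0 fell (0 unadjusted) and 0 reached 2-fold higher there; with that library taken as 6 h, 0 fell (1 unadjusted) and 4 changed by the spline, against 9 as reported. Leaving out each library in turn, 3 to 5 members rose, 0 to 2 fell and 5 to 10 changed by the spline, and 4 to 6 were at least 2-fold lower in every remaining library; that last count and its alternatives were chosen after seeing the data. The count that fell was 2 without 1 h, 0 without 2 h and 0 without the library titled 8 h (1 unadjusted in each of the last 2). The slope of NOP1 turned to 0.0067 per h, that of IMP3 to 0.0879 and that of ENP1 to 0.0505 with the same median absolute deviation; IMP3 had 0.0195 and ENP1 0.0034 after quantile normalization, and the slope of ENP1 lay between -0.1544 and 0.0009 when single libraries were left out, the last without the array titled 8 h. Over all genes the standard deviation of the ratios was 0.96 for the 1 h array and 1.65 for the last. Equal spread moved the members' median from -1.27 to -1.71 for the former and from -0.84 to -0.64 for the latter. DIP2 was among the 8 that rose there, with a slope of -0.0128 per h as deposited. Slopes after such scaling thus hold the change of scale besides the course of a gene, and the share of each was not tested. The cause of the other differences was not tested. The counts of members at least 2-fold lower per library stayed within 1.5 times the reported ones under each scaling. No paired analysis was possible because each time has 1 library. Signal over background, which would show the precision of single ratios, was not analysed here.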
